A study of Mus musculus with 12 samples.

Results

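The transcription factor p53, encoded by Trp53, and 34 of its target or partner genes were followed in sorted mouse skin cells with and without the epidermal growth factor receptor gene Egfr. The 35 genes were taken by name from a fixed list, and all 35 were found among the 25965 genes measured in each of 12 RNA-seq libraries. p53 is held at a low level by the ubiquitin ligase MDM2 and its relative MDM4, and is stabilised by DNA damage and other stresses. It then switches on genes that halt the cell cycle, trigger apoptosis, restrain mTOR signalling and support DNA repair. Mdm2 is itself a p53 target, which closes a negative feedback loop. Because p53 is controlled largely through its protein, the level of Trp53 mRNA says little about its activity, and the targets are the usual transcript readout. In epidermis p53 is best known for the response to ultraviolet light, and the related protein p63 is required for the stratified epithelium itself.

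The cells came from 3 compartments with 2 knockout and 2 control libraries each. HFSC are hair follicle stem cells, where the knockout genotype is EGFR_delta_LGR5, a deletion tied by its name to Lgr5, a stem cell gene of the follicle. ORS is the outer root sheath, the sleeve of epithelium around the hair, and its knockout genotype is EGFR_delta_ep, whose suffix the labels do not spell out. IFE cells carry that same knockout genotype. The labels describe IFE as inner root sheath, but the abbreviation usually stands for interfollicular epidermis, and it is kept here as a name only. Of 6 inner root sheath genes, Krt25 and Krt28 had 0 reads in all 4 IFE libraries and Krt71 in 3 of them. The sum of the list was 427 to 605 CPM (reads per M reads in genes) in HFSC, 301 to 379 CPM in ORS and 875 to 1026 CPM in IFE, where Gata3 alone made up 857 to 1010 CPM. All controls have the genotype EGFR_fl_fl. The labels name no age, no Cre driver and no pooling of animals. Libraries are named by their titles. In HFSC they are L95 and L97 for knockouts and L136 and L94 for controls; in both ORS and IFE, E358 and E359 are the knockouts, while the controls are E341 and E344 in ORS and E341 and E360 in IFE. Within a group, values follow this order of libraries. Separate animals are not stated within a group, and a p-value here therefore sets groups against a spread that may be partly technical.

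Reads in genes came to 11.5 to 16.8 M in HFSC, 24.7 to 27.7 M in ORS and 11.4 to 13.2 M in IFE libraries. These were 26.9% to 28.9% of the library total in HFSC, 50.6% to 54.6% in ORS and 27.8% to 29.6% in IFE. Levels are given as CPM, reads scaled to 1 M reads in genes after TMM scaling, on which 1 read was worth 0.0356 to 0.0893 CPM; CPM is not corrected for transcript length and is compared only within a gene. Egfr stood at 335 and 330.1 CPM in HFSC knockouts against 389 and 431 CPM in HFSC controls, at 3.72 and 55.2 CPM in ORS knockouts against 277 and 247 CPM in ORS controls, and at 0 and 0.320 CPM in IFE knockouts against 116 and 156 CPM in IFE controls. The receptor transcript was far lower in ORS and IFE knockouts, but only 0.30 lower (log2, not called) in HFSC knockouts. Reads over exons that were not deleted would not show a deletion, and the labels do not say which exons were. By Xist and Y-linked reads, both HFSC knockouts, both IFE controls and ORS control E341 were male and the other libraries female, so that in HFSC and in IFE genotype cannot be told apart from sex. The titles of IFE and ORS libraries carry different suffixes of unstated meaning, and the HFSC knockouts carry another genotype under titles that begin with another letter, so these cannot be told apart from compartment. Cd34, a bulge marker, stood at 1330.0 to 2150 CPM in HFSC, at most 5.88 CPM in ORS and 0 reads in IFE. The stem cell marker Lgr5 did not set HFSC apart from ORS in the same way, at 132 to 357 CPM in HFSC, 340.6 to 495 CPM in ORS and at most 4.07 CPM in IFE, and Sox9 and Lhx2 overlapped between HFSC and ORS. The 6 genes of basal and suprabasal epidermis summed to 1979 to 2446 CPM in HFSC, 177.5 to 452 CPM in ORS and 6174 to 8422 CPM in IFE. Sbsn made up 1872 to 2289 CPM of the HFSC sum, against 64.5 to 159 CPM in IFE.

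p53 binds DNA as a tetramer at pairs of a short motif called the half-site. The RefSeq promoter table (GRCm38.p6, from 250 bases before to 50 bases after a gene's start) held 28 of the 35 genes. A match to the p53 half-site consensus on either strand was present in 14 of these 28, against 9.55% of all 27025 genes in the table. A pair of half-sites with a spacer of 0 to 13 bases was found in 1 of the 28, Cdkn1a, and in 20 genes (0.074%) of the table. The stretches below are those of Trp53, of its inhibitor Mdm2 and of 4 targets whose levels are described in the results, with the half-site in capitals and the sequence 5′ to 3′ on the gene's strand. Cdkn1a lies at chr17:29090876-29090967 on the plus strand, Ddit4l at chr3:137623552-137623621 on the plus strand, Sesn1 at chr10:41887236-41887305 on the plus strand, Ccng1 at chr11:40755432-40755501 on the minus strand, Mdm2 at chr10:117710905-117710974 on the minus strand and Trp53 at chr11:69580254-69580323 on the plus strand.
Cdkn1a: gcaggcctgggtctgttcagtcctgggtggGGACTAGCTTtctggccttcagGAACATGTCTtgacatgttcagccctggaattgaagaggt
Ddit4l: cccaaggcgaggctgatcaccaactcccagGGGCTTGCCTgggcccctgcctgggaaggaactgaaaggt
Sesn1: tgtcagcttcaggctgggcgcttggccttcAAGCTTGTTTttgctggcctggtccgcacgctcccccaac
Ccng1: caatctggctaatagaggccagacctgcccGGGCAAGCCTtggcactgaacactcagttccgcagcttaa
Mdm2: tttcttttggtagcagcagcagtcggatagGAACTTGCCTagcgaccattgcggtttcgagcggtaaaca
Trp53: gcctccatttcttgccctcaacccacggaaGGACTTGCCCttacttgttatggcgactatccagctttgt
Cdkn1a and Sesn1 each have 2 windows in the promoter table, 1 of which gave the stretch shown. In Cdkn1a the half-sites begin 73 and 51 bases before the start of that window's transcript, 12 bases apart. The 10 bases right after the second one match the consensus at 9 of 10 positions. The other matches begin 90 bases before the RefSeq start in Ddit4l, 173 in Sesn1, 185 in Ccng1, 186 in Mdm2 and 75 in Trp53. For Ddit4l and Sesn1 that start is an internal one, 2.06 kb and 77.5 kb downstream of where the GENCODE gene begins, so these stretches lie inside the annotated genes. A match is a description of the letters in this window, not a measured binding site, and many known p53 sites lie in introns or further upstream.

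The mean level over the 35 genes, as log2(CPM + 0.5), was 4.96 ± 0.19 in HFSC, 4.40 ± 0.14 in ORS and 4.63 ± 0.07 in IFE (SD, n = 4 libraries each). The same mean over all tested genes was 3.98 ± 0.04 in HFSC, 3.85 ± 0.06 in ORS and 3.68 ± 0.09 in IFE. HFSC libraries, from 4.77 to 5.22 for the 35 genes, lay above all ORS libraries (4.23 to 4.57) and all IFE libraries (4.56 to 4.70), while the IFE range began at the top of the ORS range. The difference knockout minus control was 0.23 in HFSC, 0.16 in ORS and -0.03 in IFE. With 1 library left out it was 0.08 (without knockout L97) to 0.38 in HFSC, 0.07 (without control E344, and likewise without knockout E359) to 0.25 in ORS, and -0.08 to 0.03 in IFE. No p-value is attached to this mean, since the genes were chosen with results of these data known.

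**Figure D1:**
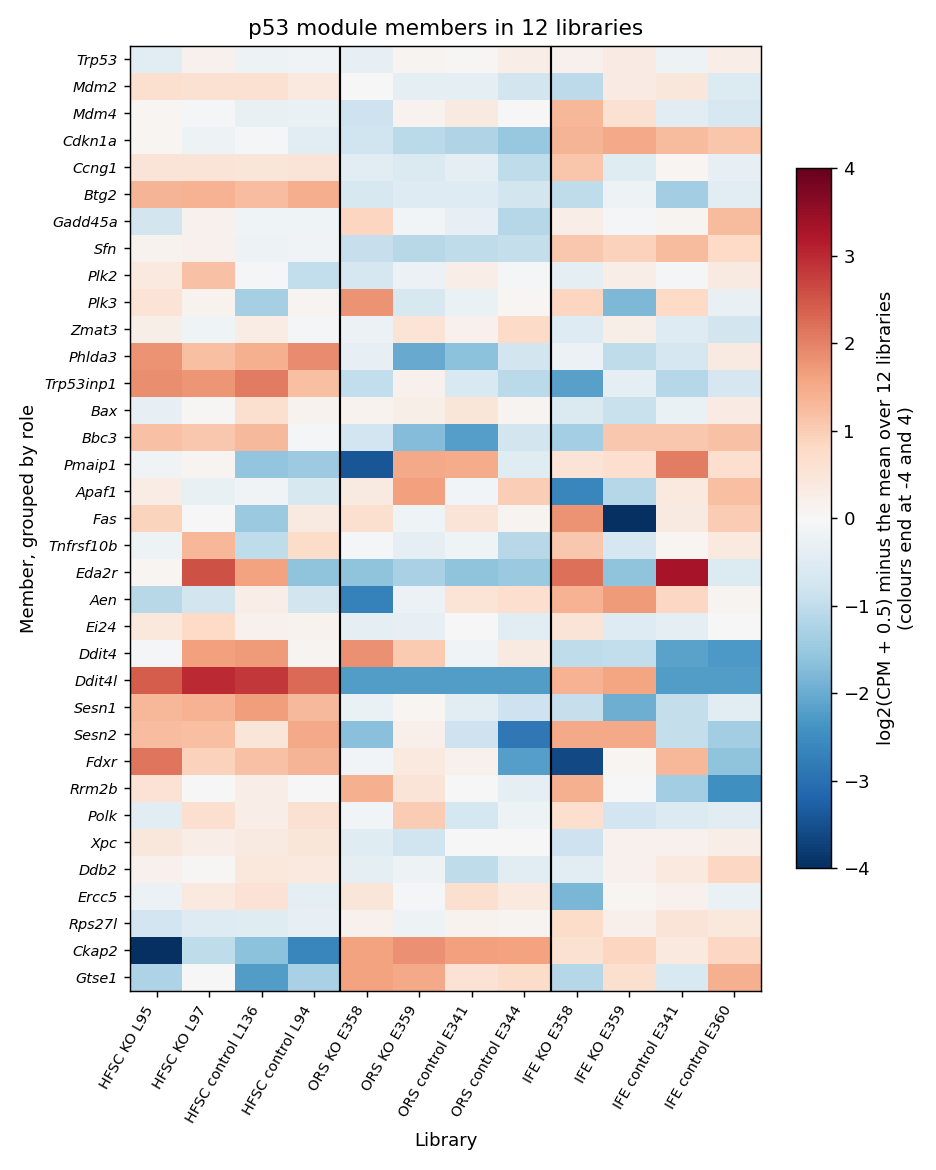
Level of each of the 35 genes in each of the 12 libraries, in colour relative to the gene's own mean over the libraries on the log2 scale, with genes in rows by role and libraries in columns by compartment and genotype. The HFSC columns stand apart for Ddit4l, Sesn1, Btg2 and Trp53inp1 (high) and for Ckap2 (low).

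Differences between compartments were tested over both genotypes with the moderated test of limma, with Benjamini-Hochberg adjustment over all tested genes and a call at an adjusted p under 0.05. Between HFSC and ORS, 16 of the 35 genes (45.7%) were called, against a background of 28.7% of all 15251 tested genes. Of these, 13 were higher in HFSC (37.1%, against 14.3%) and 3 lower (8.57%, against 14.4%). Between HFSC and IFE, 10 genes (28.6%) were called, against a background of 36.1%, with 6 higher (17.1%, against 19.9%) and 4 lower (11.4%, against 16.1%). Between ORS and IFE, 5 genes (14.3%) were called, against a background of 15.8%, with 2 higher in ORS (5.71%, against 8.53%) and 3 lower (8.57%, against 7.25%). One of the 3, Ddit4l, entered that fit only through its reads in the 2 IFE knockouts and supports nothing there; without it 4 of 34 genes (11.8%) were called, 2 in each direction. On the TMM scale, the share between HFSC and ORS was the one above its background. In such bulk samples, fewer cells of a type and less RNA per cell cannot be told apart.

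The split depends on scaling, and the share of reads in genes, given above, was larger in ORS than in HFSC or IFE. On the scale of the deposited library total, without TMM, 16 genes were called between HFSC and ORS, 6 higher and 10 lower. Of all 15251 tested genes 7869 were called on that scale, against 4381 with TMM. The share of called genes in the list was then below this background, not above it. The median of all tested genes lay at -0.74 (log2), against 0.03 with TMM. The 6 that were called higher on both scales were Btg2, Phlda3, Trp53inp1, Sesn1, Sesn2 and Ddit4l, and Ckap2, Gtse1 and Rps27l were called lower on both. On the deposited total 17 genes were called between ORS and IFE, 14 higher and 3 lower, against 7445 of all 14449 tested genes. The median of all tested genes was at 0.92, against 0.13 with TMM. Between HFSC and IFE the scales differed little, with 6 higher and 5 lower on the deposited total, against 5129 of all 15251 tested genes. In control libraries alone the calls of Mdm2, Ccng1, Bbc3, Xpc, Ddb2, Rps27l and Gtse1 between HFSC and ORS were lost. Changes below are relative to the TMM scale.

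**Figure D2:**
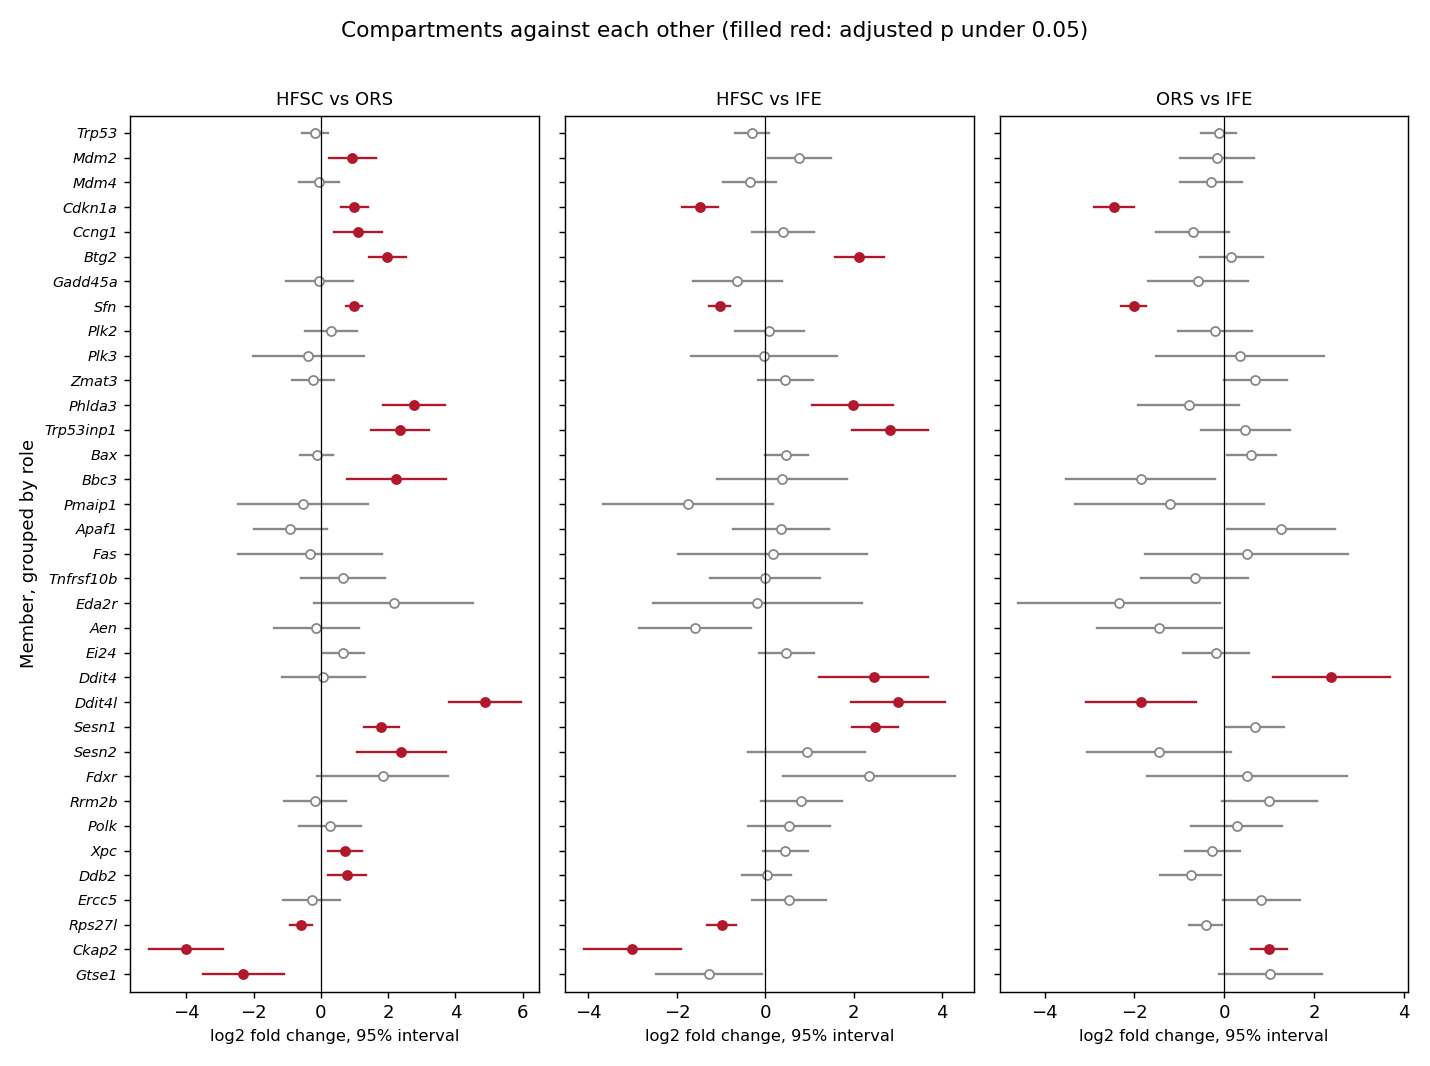
Log2 fold change with its 95% interval for each of the 35 genes in HFSC against ORS, HFSC against IFE and ORS against IFE, ordered by role; filled red points passed an adjusted p of 0.05. In HFSC against ORS, 13 of the 16 called genes lie to the right of 0, and Ckap2 lies furthest to the left at -4.01.

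For Trp53 itself no difference between compartments was called. Trp53 was measured at 149.7 and 225 CPM in HFSC knockouts, 174 and 182 CPM in HFSC controls, 159 and 217 CPM in ORS knockouts, 206 and 240.0 CPM in ORS controls, 227 and 250.3 CPM in IFE knockouts, and 175 and 245 CPM in IFE controls. The ranges of the 3 compartments overlapped. The log2 fold change was -0.17 (95% interval -0.56 to 0.22) in HFSC against ORS, -0.30 (-0.68 to 0.09) in HFSC against IFE and -0.13 (-0.52 to 0.27) in ORS against IFE, none of which was called. On the deposited total, Trp53 passed the test as lower in HFSC than in ORS (-1.15) and higher in ORS than in IFE (0.84, adjusted p = 0.00289 by limma).

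Mdm2, the ligase that marks p53 for degradation, had 78.7 and 78.1 CPM in HFSC knockouts, 78.4 and 67.2 CPM in HFSC controls, 51.5 and 39.1 CPM in ORS knockouts, 39.0 and 30.2 CPM in ORS controls, 24.3 and 63.4 CPM in IFE knockouts, and 70.2 and 34.5 CPM in IFE controls. Every HFSC library was above every ORS library, and IFE spanned almost the whole range. Mdm2 was called higher in HFSC than in ORS (log2 fold change 0.93, SE 0.32, adjusted p = 0.0489 by limma), a call lost when any 1 of the HFSC or ORS libraries was left out, with values of 0.84 to 1.03, and also on the deposited total, where the value was -0.045, with no filter on low reads and at a pseudocount of 0.1. Mdm4, which inhibits p53 without degrading it, averaged 41.8 ± 5.3 CPM in HFSC, 45.2 ± 14.1 CPM in ORS and 62.2 ± 40.3 CPM in IFE (SD, n = 4 libraries each) and was not called in any of these 3 comparisons on the TMM scale.

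Among the 10 genes of cell cycle arrest, 6 were called higher in HFSC than in ORS and none lower, against backgrounds of 14.3% higher and 14.4% lower. Against IFE, 3 were called higher and 2 lower, with backgrounds of 19.9% and 16.1%. Cdkn1a encodes p21, the inhibitor of cyclin-dependent kinases through which p53 halts the cell cycle. It had 87.9 and 72.2 CPM in HFSC knockouts, 79.1 and 60.8 CPM in HFSC controls, 47.7 and 39.3 CPM in ORS knockouts, 35.8 and 28.5 CPM in ORS controls, 215 and 236 CPM in IFE knockouts, and 200 and 180.5 CPM in IFE controls. The 3 compartments did not overlap, with IFE highest and ORS lowest. The log2 fold change was 0.99 (SE 0.19, adjusted p = 0.00178) in HFSC against ORS, -1.47 (SE 0.19, adjusted p = 7.4e-05) in HFSC against IFE and -2.46 (SE 0.20, adjusted p = 2.9e-05) in ORS against IFE, all by limma. On the deposited total the first was 0.01 and not called, while the others were called at -1.47 and -1.49. Of the Cdkn1a exon bases, 7.68% overlap another annotated transcript on the other strand. Sfn, encoding 14-3-3 sigma, a p53-induced brake on entry into mitosis that is abundant in stratified epithelia, showed the same order. It reached 1092 and 1107 CPM in HFSC knockouts, 850.4 and 889.7 CPM in HFSC controls, 518 and 462 CPM in ORS knockouts, 487 and 512 CPM in ORS controls, 2083 and 1873 CPM in IFE knockouts, and 2354 and 1733 CPM in IFE controls. Its log2 fold change was 0.98 in HFSC against ORS, -1.03 in HFSC against IFE and -2.01 in ORS against IFE, with adjusted p-values by limma of 4.5e-05, 2.2e-05 and 6e-06 in that order. The first, like that of Cdkn1a, was absent on the deposited total (-0.003).

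In 3 other arrest genes HFSC was highest, and ORS and IFE overlapped. Btg2, an antiproliferative protein, had 177 and 181 CPM in HFSC knockouts, 161 and 187 CPM in HFSC controls, 43.1 and 47.1 CPM in ORS knockouts, 47.4 and 41.2 CPM in ORS controls, 33.5 and 59.3 CPM in IFE knockouts, and 25.9 and 49.99 CPM in IFE controls. Trp53inp1, a stress protein that enhances p53 activity, had 211 and 197 CPM in HFSC knockouts, 244 and 135 CPM in HFSC controls, 29.3 and 65.7 CPM in ORS knockouts, 37.5 and 27.2 CPM in ORS controls, 12.4 and 43.9 CPM in IFE knockouts, and 26.3 and 36.2 CPM in IFE controls. Phlda3, which opposes AKT at the membrane, had 112 and 74.8 CPM in HFSC knockouts, 86.9 and 119.8 CPM in HFSC controls, 25.2 and 7.47 CPM in ORS knockouts, 9.85 and 19.1 CPM in ORS controls, 27.0 and 15.6 CPM in IFE knockouts, and 19.9 and 41.1 CPM in IFE controls. For each of the 3 genes the lowest HFSC library lay above the highest ORS and IFE libraries. In HFSC against ORS the log2 fold change was 1.97 (SE 0.25) for Btg2, 2.35 (SE 0.39) for Trp53inp1 and 2.77 (SE 0.42) for Phlda3, and in HFSC against IFE it was 2.12, 2.82 and 1.97 in that order of genes. All 6 passed the test, with adjusted p-values of 0.00325 or less by limma. In ORS against IFE none of the 3 was called, with values of 0.15, 0.47 and -0.79.

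Ccng1, encoding cyclin G1, was the sixth arrest gene called higher in HFSC than in ORS, at 71.4 ± 0.9 CPM in HFSC, 33.4 ± 6.1 CPM in ORS and 59.96 ± 34.2 CPM in IFE (SD, n = 4 libraries each). That call (1.104, SE 0.32, adjusted p = 0.0228 by limma) was lost when any library but ORS control E341 was left out (0.94 to 1.13), and on the deposited total (0.12). Of the other 4 arrest genes, Gadd45a, Plk2, Plk3 and Zmat3, none was called in any comparison of compartments with TMM, and each had overlapping ranges in all 3.

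**Figure D3:**
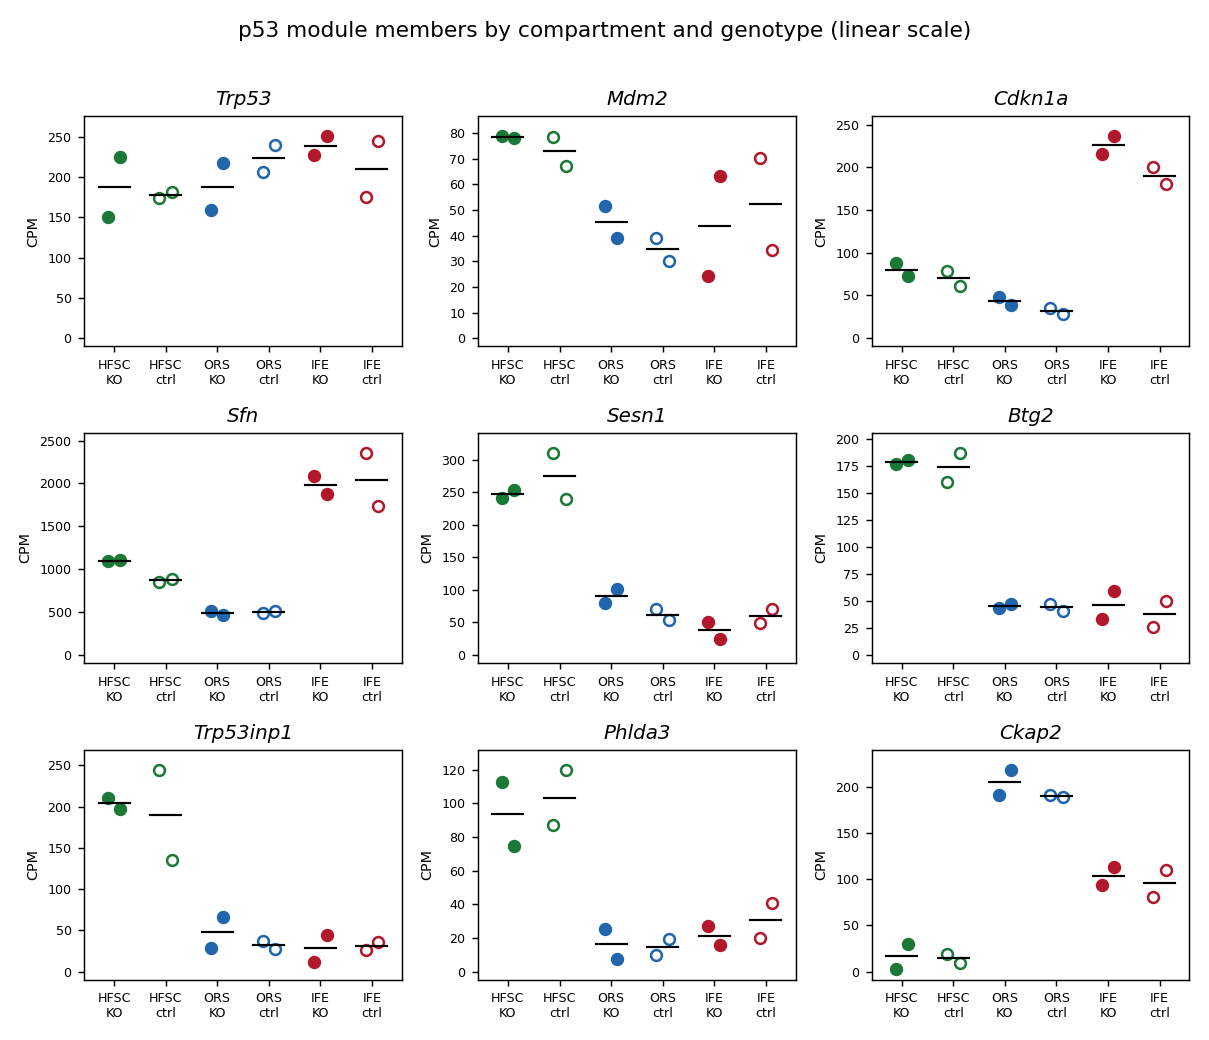
CPM in each library, on linear axes starting at 0, for Trp53, Mdm2, Cdkn1a, Sfn, Sesn1, Btg2, Trp53inp1, Phlda3 and Ckap2 in HFSC, ORS and IFE; filled points are knockouts, open points controls and bars group means. Trp53 overlaps everywhere, Cdkn1a and Sfn are highest in IFE, Sesn1, Btg2, Trp53inp1 and Phlda3 are highest in HFSC, and Ckap2 is highest in ORS.

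Of the 5 genes that restrain mTOR or act in redox stress, 3 were called higher in HFSC than in ORS (background 14.3%) and 3 higher than in IFE (background 19.9%), with none lower. Sesn1 encodes sestrin 1, a p53-induced inhibitor of mTORC1. It had 242 and 253 CPM in HFSC knockouts, 310.3 and 239 CPM in HFSC controls, 79.9 and 102 CPM in ORS knockouts, 70.1 and 53.4 CPM in ORS controls, 50.6 and 24.7 CPM in IFE knockouts, and 49.9 and 71.3 CPM in IFE controls. No ORS or IFE library came near the lowest HFSC library. The log2 fold change was 1.80 (SE 0.24, adjusted p = 0.000178) in HFSC against ORS and 2.48 (SE 0.24, adjusted p = 1.1e-05) in HFSC against IFE by limma.

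Ddit4l, a relative of the mTORC1 inhibitor DDIT4 (REDD1), was detected in only some of the groups. It had 12.3 and 18.2 CPM in HFSC knockouts, 16.2 and 10.9 CPM in HFSC controls, 0 reads in all 4 ORS libraries, 5.71 and 6.55 CPM in IFE knockouts and 0 reads in both IFE controls. HFSC carried at least 129-fold more than ORS, taking a floor of 3 reads per library, and the difference was called (adjusted p = 2.3e-05 by limma), as was that in HFSC against IFE (log2 fold change 3.003, SE 0.49, adjusted p = 0.000495). Among the 8 ORS and IFE libraries only the 2 IFE knockouts had reads, and Ddit4l passed the filter on low reads through them alone, so no test of it is given for ORS against IFE.

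Ddit4 itself followed another order. It had 5.46 and 19.1 CPM in HFSC knockouts, 20.1 and 6.38 CPM in HFSC controls, 21.9 and 12.5 CPM in ORS knockouts, 5.30 and 7.65 CPM in ORS controls, 2.62 and 2.71 CPM in IFE knockouts, and 0.923 and 0.803 CPM in IFE controls. All IFE libraries lay below all HFSC and ORS libraries, and Ddit4 was called in HFSC against IFE (2.45, SE 0.57, adjusted p = 0.00514 by limma) and in ORS against IFE (2.38, SE 0.59, adjusted p = 0.0208). The second of these was lost when ORS knockout E358, ORS control E341 or ORS control E344 was left out (2.19 to 2.51), in control libraries alone (2.33) and with limma-voom (2.71). Sesn2, the stress-induced sestrin 2, had 15.3 and 14.8 CPM in HFSC knockouts, 8.94 and 18.5 CPM in HFSC controls, 1.60 and 7.28 CPM in ORS knockouts, and 3.31 and 0.423 CPM in ORS controls, and was called higher in HFSC than in ORS (2.39, SE 0.61, adjusted p = 0.0112 by limma). Without ORS control E344 or HFSC control L94 that call was lost, at 1.88 and 2.14. Fdxr, ferredoxin reductase of the mitochondrion, was not called in any comparison of compartments.

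Of the 9 apoptosis genes only Bbc3 was called with TMM, in HFSC against ORS, and none in the other 2 comparisons. The backgrounds were 28.7% in HFSC against ORS, 36.1% in HFSC against IFE and 15.8% in ORS against IFE. Bbc3 encodes PUMA, which unleashes BAX at the mitochondrion, and had 4.72 and 4.37 CPM in HFSC knockouts, 5.13 and 1.71 CPM in HFSC controls, 0.855 and 0.189 CPM in ORS knockouts, 0 and 0.884 CPM in ORS controls, 0.396 and 4.39 CPM in IFE knockouts, and 4.37 and 4.73 CPM in IFE controls. Its log2 fold change was 2.23 (SE 0.68, adjusted p = 0.0271 by limma), and the call was lost on leaving out ORS knockout E359, ORS control E341, either HFSC knockout or HFSC control L136 (1.87 to 2.26), and on the deposited total (1.08). Bax, the pore-forming effector, averaged 73.4 ± 20.9 CPM in HFSC, 78.1 ± 9.5 CPM in ORS and 53.6 ± 20.2 CPM in IFE (SD, n = 4 libraries each), and 12.2% of its exon bases overlap another gene. The death receptors Fas, Tnfrsf10b and Eda2r had overlapping ranges in every pair of compartments. Eda2r reached 8.42 CPM in HFSC, 0.113 CPM in ORS and 14.5 CPM in IFE, with 0 reads in 1 HFSC, 2 ORS and 1 IFE library.

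Of the 6 repair genes, 2 were called higher in HFSC than in ORS and 1 lower, against backgrounds of 14.3% and 14.4%. Against IFE none was called higher and 1 lower, with backgrounds of 19.9% and 16.1%. The 2 called higher than in ORS were Ddb2 and Xpc, which recognise ultraviolet damage in DNA. Ddb2 averaged 46.6 ± 5.7 CPM in HFSC and 27.4 ± 6.1 CPM in ORS, and Xpc 83.5 ± 6.0 CPM in HFSC and 51.7 ± 12.8 CPM in ORS (SD, n = 4 libraries each), with adjusted p-values of 0.039 and 0.0393 by limma. Neither was called on the deposited total, where they stood at -0.19 and -0.26, and leaving out any 1 library (for Ddb2, any but ORS control E344) also ended the call, at 0.64 to 0.81 for Ddb2 and 0.64 to 0.80 for Xpc. Exons of Ddb2 overlap those of Acp2 on the other strand over 23.8% of their length, and whether the counting used strand is not given, so its value is uncertain. Rps27l, a p53-induced relative of a ribosomal protein whose reads may be shared with its close paralog, was lowest in HFSC, at 168.6 ± 20.3 CPM, against 252 ± 29 CPM in ORS and 336 ± 50 CPM in IFE (SD, n = 4 libraries each). It was called lower in HFSC than in ORS (-0.58, adjusted p = 0.0131 by limma; -0.52 and not called without HFSC knockout L95) and than in IFE (-0.99, adjusted p = 0.000321). Rrm2b, Polk and Ercc5 were not called in any comparison of compartments with TMM.

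The remaining pair, Ckap2 and Gtse1, are mitotic spindle proteins whose transcripts peak late in the cell cycle. Ckap2 had 3.19 and 30.1 CPM in HFSC knockouts, 19.3 and 9.61 CPM in HFSC controls, 191 and 218 CPM in ORS knockouts, 191 and 189 CPM in ORS controls, 93.3 and 113 CPM in IFE knockouts, and 80.6 and 110.2 CPM in IFE controls. The 3 compartments did not overlap, with HFSC lowest and ORS highest. The log2 fold change was -4.01 (SE 0.50, adjusted p = 0.000107) in HFSC against ORS, -3.01 (SE 0.50, adjusted p = 0.000608) in HFSC against IFE and 0.9997 (SE 0.18, adjusted p = 0.00456) in ORS against IFE by limma. Gtse1 had 6.75 and 16.5 CPM in HFSC knockouts, 3.19 and 6.52 CPM in HFSC controls, 51.8 and 48.7 CPM in ORS knockouts, 25.2 and 28.3 CPM in ORS controls, 7.37 and 26.3 CPM in IFE knockouts, and 10.8 and 46.0 CPM in IFE controls. It was called lower in HFSC than in ORS (-2.31, SE 0.55, adjusted p = 0.00766 by limma). A list of 20 proliferation genes that p53 represses through p21 and the DREAM complex moved alike. Of these, 20 of 20 were called lower in HFSC than in ORS, against a background of 14.4%. Their median log2 fold change was -4.05, against 0.03 over all tested genes. Against IFE, 19 of 20 were called lower in HFSC, with a background of 16.1% (median -3.29, against 0.18). In ORS, 9 of 20 were called higher than in IFE, with a background of 8.53% (0.65, against 0.13). This list was chosen with results of these data known. The part of proliferation in the other differences between compartments was not tested.

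Deletion of Egfr was then compared with control within each compartment. None of the 35 genes passed an adjusted p of 0.05 by limma in HFSC, ORS or IFE knockouts. The background was 0.0363% of 13778 tested genes in HFSC, and 0.0% of 14449 in both ORS and IFE, so almost nothing passed anywhere in these comparisons, Egfr included (adjusted p = 0.0798 in IFE and 1.0 in ORS). At an unadjusted p under 0.05 there were 3 genes in HFSC (8.57%, against 7.64% of all tested genes), all higher (against 4.18%). There was 1 in ORS (2.86%, against 3.4%), which was lower (against 2.09%). In IFE there were 5 (14.3%, against 7.53%), of which 4 were higher (11.4%, against 3.12%) and 1 lower (2.86%, against 4.41%); without Ddit4l, which passed the filter only through the IFE knockouts, there were 4 of 34 (11.8%), with 3 higher (8.82%). In each compartment 12 of the 35 genes (34.3%) had knockout and control libraries that did not overlap, against 38.0% of all tested genes in HFSC, 31.4% in ORS and 30.7% in IFE. The median log2 fold change over the 35 genes was 0.16 in HFSC, 0.10 in ORS and -0.21 in IFE, against 0.005 in HFSC, -0.03 in ORS and -0.03 in IFE over all tested genes.

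**Figure D4:**
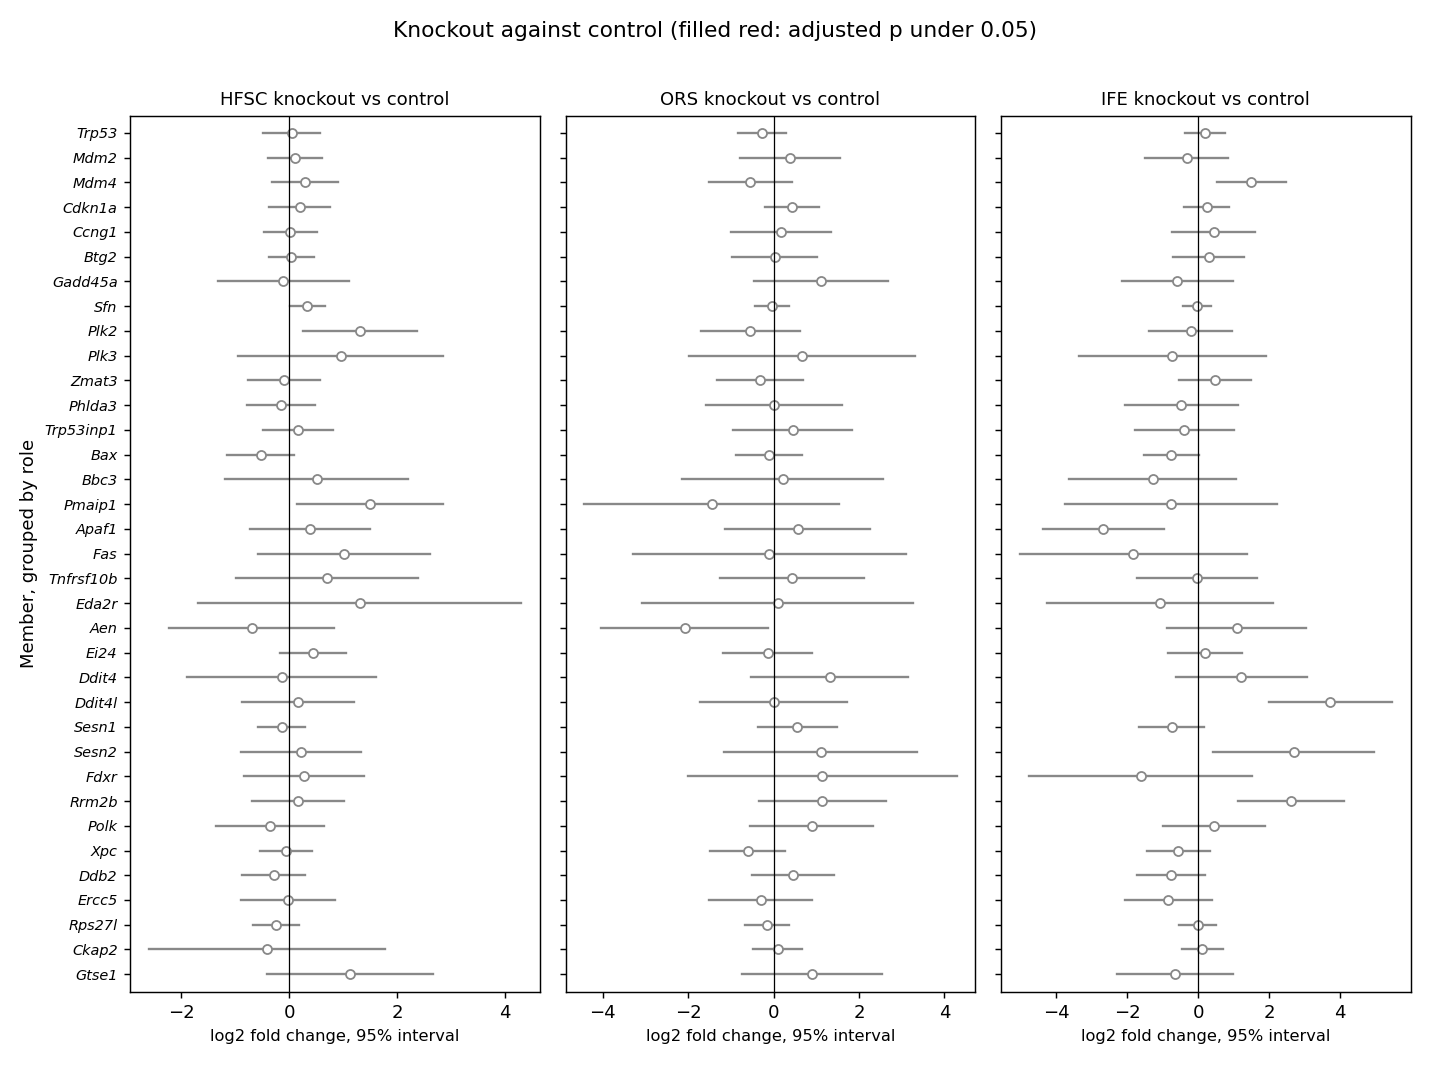
Log2 fold change of knockout against control with its 95% interval for each of the 35 genes in HFSC, ORS and IFE, ordered by role. No point passed an adjusted p of 0.05, and in IFE the intervals of Rrm2b, Mdm4 and Sesn2, and of Ddit4l, which had reads only in the knockouts, lie to the right of 0 and that of Apaf1 to the left.

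Trp53, Mdm2 and Cdkn1a, with the values given above, were not called by genotype. The log2 fold change of Trp53 was 0.04 (95% interval -0.48 to 0.57) in HFSC, -0.26 (-0.82 to 0.30) in ORS and 0.20 (-0.36 to 0.77) in IFE. That of Mdm2 was 0.11 (-0.39 to 0.61) in HFSC, 0.38 (-0.79 to 1.55) in ORS and -0.32 (-1.49 to 0.85) in IFE. That of Cdkn1a was 0.20 (-0.36 to 0.76) in HFSC, 0.43 (-0.20 to 1.07) in ORS and 0.25 (-0.39 to 0.88) in IFE. Knockout and control Cdkn1a did not overlap in ORS or in IFE, where both knockouts were the higher, but the intervals all include 0 and also a change of more than 1.5-fold.

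In IFE, 4 genes had higher values in knockouts at an unadjusted p under 0.05 and 1 had lower values. Ddit4l, with 72 and 82 reads in the knockouts and 0 in both controls, was at least 23.6-fold higher at a floor of 3 reads per library. It is one of these 4 by the way it passed the filter, and its test is not used. Rrm2b, the p53-induced subunit of ribonucleotide reductase, had 53.9 and 19.6 CPM in IFE knockouts against 7.30 and 3.21 CPM in IFE controls (log2 fold change 2.62, SE 0.67, adjusted p = 0.422 by limma). In ORS it had 53.7 and 28.7 CPM in knockouts against 20.03 and 15.3 CPM in controls (1.14, SE 0.67, adjusted p = 1.0), and in HFSC 29.7 and 20.03 CPM against 24.1 and 19.5 CPM (0.17). Rrm2b exons overlap an antisense gene over 8.04% of their length.

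Sesn2 had 18.6 and 18.8 CPM in IFE knockouts against 2.94 and 2.05 CPM in IFE controls (2.70, SE 1.02, adjusted p = 0.58 by limma). The 2 libraries of each group lay close together. Mdm4 had 116 and 69.3 CPM in IFE knockouts against 34.0 and 29.1 CPM in IFE controls (1.499, SE 0.44, adjusted p = 0.492 by limma). In ORS it lay at 25.6 and 49.97 CPM in knockouts against 59.0 and 46.4 CPM in controls, and in HFSC at 48.5 and 43.5 CPM against 36.8 and 38.3 CPM. Apaf1, the scaffold of the apoptosome, had 1.74 and 5.67 CPM in IFE knockouts against 17.3 and 30.8 CPM in IFE controls (-2.66, SE 0.77, adjusted p = 0.492 by limma). In ORS it had 17.1 and 42.2 CPM in knockouts against 12.2 and 26.5 CPM in controls, and in HFSC 16.2 and 10.7 CPM against 11.9 and 8.29 CPM. Both IFE knockouts were the lowest of all 12 libraries for Apaf1, and the highest for Mdm4.

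In ORS, Aen was the single gene at an unadjusted p under 0.05. Aen, a nuclease that p53 induces and that enhances apoptosis, had 0.669 and 5.996 CPM in ORS knockouts against 10.8 and 11.6 CPM in ORS controls (-2.08, SE 0.88, adjusted p = 1.0 by limma). In IFE the order was the other way round, with 19.7 and 24.6 CPM in knockouts against 13.1 and 7.68 CPM in controls, and in HFSC Aen had 3.07 and 4.06 CPM in knockouts against 8.68 and 4.15 CPM in controls. Cdkn1a, Ddit4 and Rrm2b were the 3 genes (8.57%, against 2.39% of all tested genes) whose knockout libraries lay above the controls without overlap in both ORS and IFE. Knockouts E358 and E359 and control E341 carry the same title numbers in both compartments, so these are not known to be separate animals. For Ddit4 the log2 fold change was 1.31 in ORS (95% interval -0.53 to 3.16) and 1.22 in IFE (-0.63 to 3.06), and in HFSC it was -0.14 with overlapping groups. Xpc was the gene (2.86%, against 3.08%) whose knockout libraries lay below the controls in both, with 45.6 and 36.5 CPM in ORS knockouts against 62.5 and 62.1 CPM in ORS controls, and 35.2 and 71.2 CPM in IFE knockouts against 71.3 and 76.0 CPM in IFE controls.

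In HFSC, where the Egfr transcript was at 330.1 to 335 CPM in knockouts against 389 to 431 CPM in controls, Plk2, Pmaip1 and Sfn were higher in knockouts at an unadjusted p under 0.05. Plk2, a polo-like kinase induced by p53 and by growth factors, had 28.3 and 49.5 CPM in HFSC knockouts against 20.5 and 10.6 CPM in HFSC controls (1.31, SE 0.45, adjusted p = 0.558 by limma); in ORS it had 13.42 and 18.3 CPM in knockouts against 26.2 and 20.3 CPM in controls, and in IFE 16.2 and 25.9 CPM against 20.3 and 27.9 CPM. Pmaip1, encoding the BH3 protein NOXA, had 8.34 and 9.80 CPM in HFSC knockouts against 2.74 and 3.03 CPM in HFSC controls (1.496, SE 0.58, adjusted p = 0.601 by limma); its ORS libraries were widely scattered, at 0.409 and 26.9 CPM in knockouts against 26.6 and 6.34 CPM in controls, and in IFE it had 13.6 and 14.8 CPM in knockouts against 39.6 and 15 CPM in controls. Sfn differed by 0.34 (95% interval 0.01 to 0.66, adjusted p = 0.632 by limma).

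**Figure D5:**
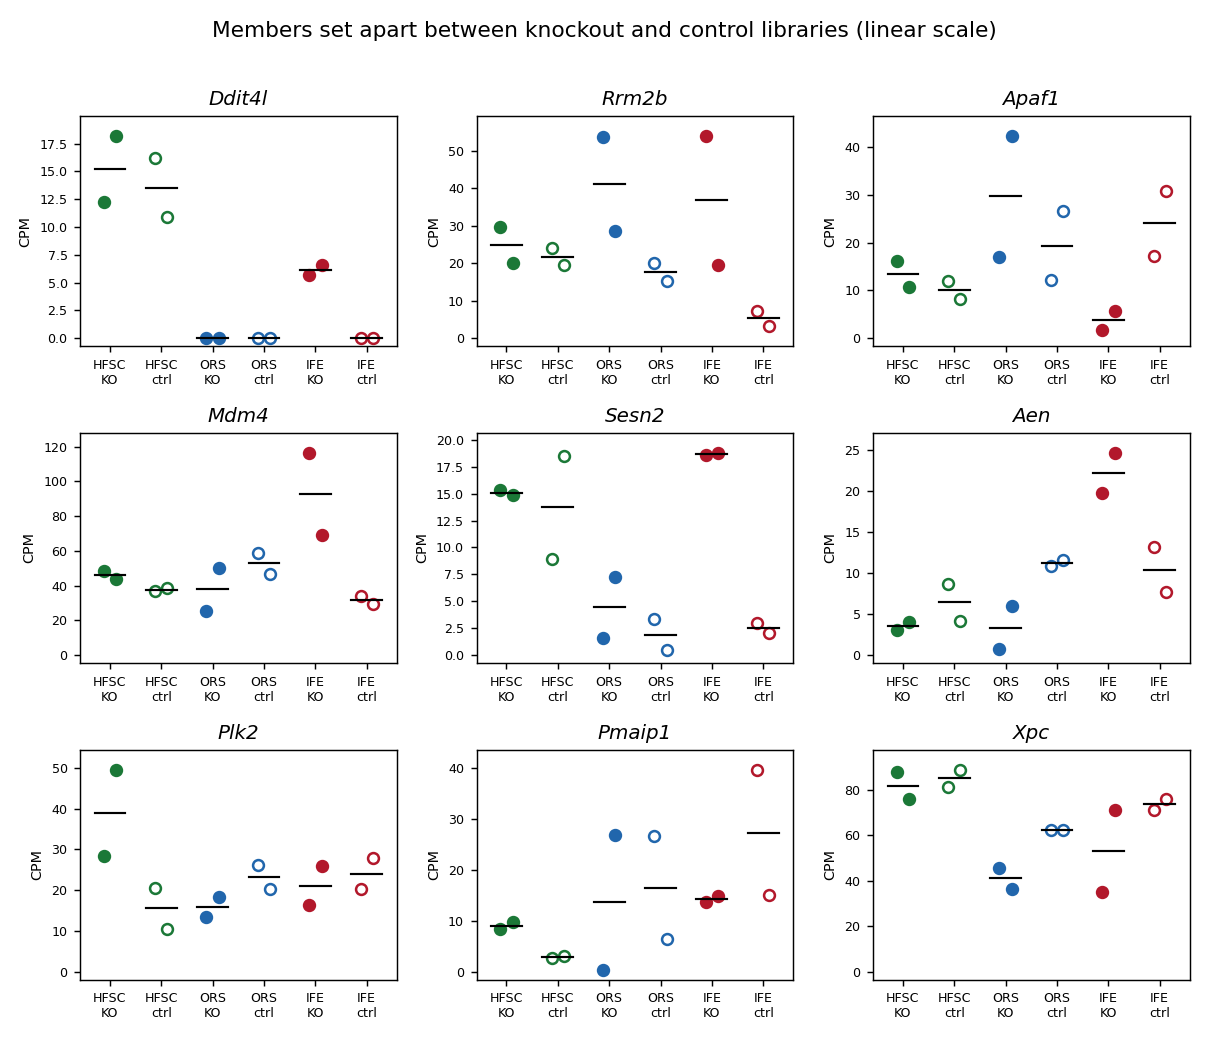
CPM in each library, on linear axes starting at 0, for Ddit4l, Rrm2b, Apaf1, Mdm4, Sesn2, Aen, Plk2, Pmaip1 and Xpc in HFSC, ORS and IFE; filled points are knockouts, open points controls and bars group means. In IFE the knockout points of Ddit4l, Rrm2b, Mdm4 and Sesn2 lie above and those of Apaf1 below the control points, while Pmaip1 in ORS runs from 0.409 to 26.9 CPM within the knockouts.

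Whether knockout effects differed between compartments was tested directly, and no gene of the 35 was called (0.0% of all tested genes in each of the 3 contrasts). At an unadjusted p under 0.05 there was 1 gene in HFSC minus ORS (2.86%, against 4.47% of all tested genes), 4 in HFSC minus IFE (11.4%, against 7.28%) and 4 in ORS minus IFE (11.4%, against 4.78%), or 3 of 34 (8.82%) without Ddit4l. For HFSC minus ORS this was Plk2 (1.86, 95% interval 0.30 to 3.42, adjusted p = 1.0 by limma). For HFSC minus IFE they were Ddit4l (-3.56), Apaf1 (3.05), Rrm2b (-2.45) and Mdm4 (-1.21), with adjusted p-values of 0.412 to 0.686. For ORS minus IFE they were Apaf1 (3.23), Aen (-3.18) and Mdm4 (-2.04), each with an adjusted p of 0.999, and Ddit4l, whose test there is not used. HFSC minus IFE and ORS minus IFE share the IFE libraries, so the recurrence of Ddit4l, Apaf1 and Mdm4 in both is not independent.

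The 2 libraries of a group often differed as much as the groups did. The median gap between replicates over the 35 genes was 0.40 (log2) in HFSC knockouts and 0.38 in HFSC controls, 0.44 in ORS knockouts and 0.38 in ORS controls, and 0.81 in IFE knockouts and 0.45 in IFE controls. Over all tested genes it was 0.356 in HFSC knockouts, 0.375 in HFSC controls, 0.522 in ORS knockouts and 0.365 in ORS controls. In IFE it was 0.56 in knockouts and 0.478 in controls. The 35 genes lay furthest above all tested genes in IFE knockouts, where 17 of the 35 differed by more than 1 on the log2 scale. The share of all tested genes beyond 1 was not counted. The widest gap was that of the death receptor Fas, with 42.9 CPM in IFE knockout E358 and 0.240 CPM in E359. Fdxr had 0.0793 CPM, a single read, in E358 and 6.87 CPM in E359. In ORS knockouts the widest gap was that of Pmaip1, at 4.91. Counts of the replicate pairs differed far beyond sampling noise in all 6 groups, with a chi-square per degree of freedom of 43.0 to 144.6.

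Of 34 further p53 targets and effectors found in the files, 30 or 31 were tested and none was called in a knockout comparison, nor was any of 21 tested regulators and relatives of p53 or of the 20 proliferation genes. Between compartments, 10 of 31 further targets were called higher and 6 lower in HFSC than in ORS (51.6% in all, against 28.7% of all tested genes), 11 higher and 3 lower in HFSC than in IFE (45.2%, against 36.1%), and 7 higher and 6 lower in ORS than in IFE (41.9%, against 15.8%). At an unadjusted p under 0.05 in IFE, Perp, a desmosomal p53 and p63 target of epidermis, had 3395 and 2658 CPM in knockouts against 1442 and 1876 CPM in controls (0.87, SE 0.24, adjusted p = 0.453 by limma). The replication helicase gene Mcm2 had 60.6 and 112 CPM in IFE knockouts against 36.9 and 39.8 CPM in IFE controls, and Bub1, of the spindle checkpoint, 90.3 and 49.8 CPM against 49.3 and 20.1 CPM. The damage kinase gene Atr was lower, at 11.3 and 14.9 CPM in IFE knockouts against 33.7 and 49.5 CPM in IFE controls, and so was Usp7, whose product removes ubiquitin from p53 and MDM2, at 64.7 and 56.9 CPM against 111 and 94.1 CPM. In HFSC, Rrm2, the cell cycle partner of Rrm2b, had 170.3 and 251 CPM in knockouts against 106 and 51.0 CPM in controls (1.48, SE 0.36, adjusted p = 0.413 by limma). Thbs1, encoding the matrix protein thrombospondin 1, had 539.9 and 496 CPM in HFSC knockouts against 73.2 and 278 CPM in HFSC controls, and Trp73, encoding the p53 relative p73, 40.0 and 60.9 CPM against 18.1 and 34.4 CPM. These are the 8 with the smallest p of 10 at an unadjusted p under 0.05. The others were Cenpf, a kinetochore gene, in ORS (0.54) and Rfwd2, a ubiquitin ligase gene, in HFSC (0.69). In HFSC they made up 1 of 30 further targets, 2 of 21 regulators and 1 of 20 proliferation genes. In ORS it was 1 of 20 proliferation genes, and in IFE 1 of 31, 2 of 21 and 2 of 20. Among all tested genes the shares were 7.64% in HFSC, 3.4% in ORS and 7.53% in IFE. Over the lists together the shares were no higher than these. None of the 10 passed the adjusted threshold.

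The part of other cell types in the knockout comparisons was not tested, and their markers are given here. Of 6 leukocyte genes, Ptprc and Cd207 had 0 reads in every library, and the summed level of the list was 37.1 to 52.4 CPM in HFSC knockouts against 43.0 to 61.3 CPM in HFSC controls, 15.9 to 19.6 CPM in ORS knockouts against 13.7 to 17.5 CPM in ORS controls, and 16.5 to 29.1 CPM in IFE knockouts against 21.8 to 37.8 CPM in IFE controls. The 6 fibroblast genes summed to 36.1 to 59.8 CPM in HFSC knockouts against 30.01 to 83.2 CPM in HFSC controls, 92.6 to 122 CPM in ORS knockouts against 76.0 to 86.9 CPM in ORS controls, and 234.5 to 299 CPM in IFE knockouts against 177 to 198 CPM in IFE controls, with Col3a1 at 0 reads in all 8 ORS and IFE libraries. Most of the IFE sum was Dcn alone, with 279 and 212 CPM in knockouts against 185 and 127 CPM in controls. Col1a2 overlapped there, at 19.9 and 12.9 CPM against 12.3 and 42.4 CPM. The 6 genes of basal and suprabasal epidermis did not overlap between genotypes in HFSC, at 1979 to 2046 CPM in knockouts against 2291 to 2446 CPM in controls, nor in ORS, at 177.5 to 296 CPM in knockouts against 341.2 to 452 CPM in controls; in IFE they overlapped, at 6174 to 7574 CPM in knockouts against 6646 to 8422 CPM in controls. The 6 markers of bulge and outer root sheath summed to 22770 to 27600 CPM in HFSC knockouts against 37420 to 40420 CPM in HFSC controls. That gap was Krt15, with 23430 and 19220 CPM in knockouts against 36650 and 32710 CPM in controls; the other 5 genes overlapped, at 3555 to 4170 CPM in knockouts against 3772 to 4704 CPM in controls. The 4 endothelial genes summed to at most 7.62 CPM in any library, the 5 melanocyte genes to 14.1 to 38.7 CPM, and the 5 sebaceous genes to 443 to 616 CPM in HFSC, 166 to 349 CPM in ORS and 122 to 177 CPM in IFE.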

How the data were processed

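RNA from sorted mouse skin cells was isolated with a PicoPure kit and amplified with a SMARTer Ultra kit, per the labels' protocols, and read as 150 bp pairs, per the series text. The deposited values are log2 reads per M of a library total, 1 value per gene and library for 25965 genes, and a gene with no read is stored as 0.9 read. Trim Galore, DESeq2 and the mm10 build appear in the submitters' processing notes without roles. The aligner, the counter, the annotation and whether strand was used are not stated in the sources read here. Whole reads per gene were recovered from these log2 values (at least 99.99% whole within 0.2 reads). The 35 genes and all lists were chosen with earlier results of these data known.

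Reads were scaled by TMM over 12 libraries (trims of 30% on ratios and 5% on levels) and tested on log2(CPM + 0.5) with limma 3.58.1 (R 4.3.3, statmod 1.5.0; trended, robust prior; two-sided), which understates changes of low genes. Genes under 15 reads in total, or with fewer than 2 libraries reaching the equivalent of 10 reads in a library of median size, were not tested; all 35 passed in every fit, Ddit4l in the ORS and IFE fit only through the 2 IFE knockouts. HFSC knockout against control used the 4 HFSC libraries (2 residual degrees of freedom), ORS and IFE comparisons 8 libraries (4), and contrasts of HFSC with ORS or IFE all 12 (6). Calls needed an adjusted p (Benjamini-Hochberg, over all tested genes) under 0.05. Values per library are given for Trp53, Mdm2, Cdkn1a, Egfr, genes at an unadjusted p under 0.05 in a knockout contrast, and up to 8 called genes with the largest change per comparison of compartments. Sfn and Sesn1 fall under this rule in 1 comparison and were shown in all. Xpc, Fas, Fdxr and Eda2r were named after their values were seen. The fits were tested on simulated data. Counting error alone is small for genes with many reads, but not for those with few. Examples are Bbc3, with 23, 5, 0 and 23 reads in ORS, and Ddit4, with 11 and 9 reads in IFE controls. A floor of 3 reads is 0.107 to 0.268 CPM.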

Additional observations from a re-analysis of the deposited data

How the results depend on the processing

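The count of 0 called genes in HFSC, ORS and IFE knockouts, and in the 3 differences of knockout effects, was the same under all alternatives run (median-of-ratios factors, deposited total, other pseudocounts and filters, limma-voom, other sets of libraries, leaving out each library). In ORS against IFE, where 5 genes were called, the deposited total gave 17, limma-voom 3, control libraries alone 3 and the 6 libraries with shared numbers 2, and leaving out 1 library gave 3 to 7. In HFSC against ORS, where 16 were called, control libraries alone gave 9 and leaving out 1 library gave 10 to 12, the lowest without HFSC knockout L95. HFSC against IFE stayed within 1.5 times its 10 calls. Calls over all tested genes shifted too. With control libraries alone they fell from 4381 to 2417 of 15251 in HFSC against ORS. In ORS against IFE they fell from 2280 to 918 of 14449. In HFSC against IFE they fell from 5499 to 3331, while the list had 11 calls. With limma-voom they were 2207 in ORS against IFE, and on the deposited total 7445. Lower counts in the list are therefore not particular to these genes. The cause of these shifts was not tested. Single-gene results were followed in the same way. Those of knockouts and of differences between knockout effects were not called and had no call to lose, so the pooled counts overstate stability. The tests of Ddit4l that are not used are counted too. All lost calls were in ORS against IFE, those of Ddit4l among them, and in HFSC against ORS. Over 63 single-gene results and 947 alternatives, 860 kept direction and side of the threshold, 70 lost the call, 3 gained it and 14 turned round. Of the last, on the deposited total Trp53 was at -0.009 in HFSC knockouts and 0.836 in ORS against IFE, and Mdm2 at 0.776 in ORS against IFE and -0.045 in HFSC against ORS, where Sfn was at -0.003, Xpc at -0.259 and Ddb2 at -0.192. In control libraries alone Trp53 was at 0.105 in ORS against IFE. With 1 library left out, Trp53 ranged from -0.038 (without IFE control E341) to 0.446 in IFE knockouts and from -0.248 (without L97) to 0.337 in HFSC knockouts. Mdm2 ranged from -1.001 to 0.363 in IFE knockouts (without E358; 0.188 without control E341), and from -0.503 to 0.179 in ORS against IFE (without IFE knockout E359; 0.092 without IFE control E341). The mean-level alternatives, chosen after seeing the data, gave 0.137 to 0.273 in HFSC, 0.153 to 0.180 in ORS and -0.034 to -0.023 in IFE, and with 1 library left out 0.078 to 0.382 in HFSC, 0.066 to 0.252 in ORS and -0.084 to 0.029 in IFE.

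Libraries numbered alike in IFE and ORS deviated together only weakly (correlations across genes of 0.097, 0.053 and 0.079), but each number correlated best with itself. Libraries alike in number are also alike in genotype, so this match does not single out shared animals. Within the knockouts, the difference E358 minus E359 in IFE correlated at 0.056 with that in ORS. Libraries with the same number also had the same sex by Xist and Y-linked reads. The main fit did not treat them as pairs. If they come from the same animals, its p-values take no account of that. With the replicate block over the 6 libraries with shared numbers, 3 of the 35 genes were called in ORS against IFE and 1527 genes in all. The same 6 libraries without the block, a fit added after seeing the data, gave 2 and 604, and all 8 libraries 5 and 2280. Ddit4 in ORS against IFE was not called with the block (2.296, adjusted p = 0.0821 by limma) or without it (2.229, 0.199), and Ckap2 there not without it (1.116, 0.0597).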
